A study of Mus musculus with 6 samples.

Results

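Bone morphogenetic proteins (BMPs), growth and differentiation factors (GDFs) and activins are secreted relatives of TGF-beta. They are described here together with the secreted proteins that bind and block them, in mouse embryonic fibroblasts with and without Stc1. The 9 genes are the ligands Bmp2, Bmp4, Gdf5, Gdf6 and Inhba and the antagonists Grem1, Nog, Fst and Fstl3. They were found by their gene name, which 10 of the 39495 loci in the files carry, since Inhba names 1 locus on each strand. All 10 loci were marked as successfully quantified in every library and passed the filter on low counts.

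The study compared fibroblasts of Stc1+/+ (wild-type) mice with those of Stc1-/- (knockout) mice, 3 libraries each, all labelled C57BL/6. Stc1 encodes the secreted glycoprotein stanniocalcin-1. The cells were cultured in DMEM with fetal calf serum and antibiotics, and a stranded kit for messenger RNA was used. The labels give neither the embryonic stage and passage nor the disrupted part of the gene. They also leave out whether libraries of 1 genotype stem from different embryos, so every p-value speaks only to the variation among these 6 libraries.

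As background, these ligands bind pairs of type I and type II serine/threonine kinase receptors on the cell surface. BMP2, BMP4, GDF5 and GDF6 then activate SMAD1, SMAD5 and SMAD9, whereas activins activate SMAD2 and SMAD3. In mesenchyme BMP2 and BMP4 drive bone and cartilage formation and GDF5 and GDF6 shape joints. Gremlin-1 (Grem1) and noggin (Nog) bind BMPs outside the cell, and follistatin (Fst) and follistatin-like 3 (Fstl3) bind activins.

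The libraries held 21882092 to 71488701 estimated fragments, and knockout replicate 1 was the smallest. Stc1, on chromosome 14 from 69029289 to 69041401, had 2245, 291 and 368 fragments in the wild-type and 6, 0 and 0 in the knockout libraries, as the labels say. The fibroblast genes Col1a1, Col3a1, Vim and Pdgfra were present in every library. Macrophage RNA was present too: 14 of 17 macrophage markers had a locus of their own, and none of the 14 was at 0 in any library. Their sum was 21.2, 1081 and 10069 CPM (fragment counts scaled to a common library size after TMM) for wild-type replicates 1 to 3, against 814, 74.6 and 103 CPM for the knockout replicates. Single markers differed: C1qa, C1qb and C1qc stood at 90.5, 177 and 130 CPM in wild-type replicate 2. In knockout replicate 1 they stood at 2.91, 11.1 and 5.45 CPM. Csf1r, Cx3cr1, Mrc1, Fcgr1 and Aif1 were also lower there than in wild-type replicate 2. Adgre1, Ptprc, Itgam, Cd14, Tyrobp and Laptm5 were higher. Marker sums for cartilage (17.9 to 33.8 CPM), endothelium (6.70 to 23.8 CPM) and epithelium (11.1 to 32.8 CPM) were low in all 6 libraries. Some single markers were highest in wild-type replicate 2: Col2a1 (8.83 CPM), Acan (3.14 CPM), Cdh1 (2.53 CPM) and Krt8 (2.23 CPM). Elsewhere these were at most 2.01, 0.0991, 0.376 and 0.141 CPM. Others did not peak there: Sox9 and Krt19 were highest in wild-type replicate 1 and Kdr in wild-type replicate 3. Skeletal muscle markers summed to 24.3, 99.2 and 82.9 CPM in the wild-type and 19.6, 12.7 and 27.4 CPM in the knockout libraries. The intermediate filament gene Des alone gave 98.3 and 82.4 CPM of the sums in wild-type replicates 2 and 3, and the muscle-defining genes Myod1, Myog and Myf5 were at or near 0 in every library. In RNA from whole cultures, fewer cells of a type and less RNA per cell cannot be told apart.

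Bmp2 and Grem1 were the members whose knockout libraries all lay above all wild-type libraries. Neither passed edgeR's quasi-likelihood test after adjustment over all loci, which called 0 of the 9 members and 0 of 15673 loci (0%). The same test did not call Stc1 itself, the disrupted gene (log2 fold change -7.72, standard error 1.62, adjusted p = 0.763), whereas DESeq2 gave it an adjusted p of 3.95e-05, so a member that edgeR did not call may still differ. At an unadjusted p under 0.05 edgeR gave 1 member, Bmp2, and 607 loci (3.87%), of which 251 were higher in knockout cells (1.6%). That number of loci was 2939 without wild-type replicate 1, and between 270 and 846 without any 1 of the other libraries. DESeq2 called 61 loci (0.32% of those with an adjusted p), none of them a member, and limma-voom 0. Knockout libraries lay wholly above wild-type libraries at 2 of the 9 members and at 5.18% of all loci tested, and wholly below at 0 members and 5.44% of loci. The members were chosen with earlier results known, so the 2 of 9 cannot be read as an excess.

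The promoter of Grem1 is shown because Grem1 is the most abundant member and its knockout libraries all lay above its wild-type libraries. Neither edgeR nor DESeq2 called that difference. The promoter of Bmp4 is shown because Bmp4 encodes a ligand that gremlin-1 binds. Of the 9 members, 4 were in the RefSeq promoter table used here (GRCm38.p6, the assembly that mm10 is based on): Grem1, Bmp4, Inhba and Fstl3. The stretches are the 250 bases before the annotated start, written 5′ to 3′ on the gene's strand, with matches to the searched motifs in capitals.
Grem1 (chr2:113758649-113758898, minus strand): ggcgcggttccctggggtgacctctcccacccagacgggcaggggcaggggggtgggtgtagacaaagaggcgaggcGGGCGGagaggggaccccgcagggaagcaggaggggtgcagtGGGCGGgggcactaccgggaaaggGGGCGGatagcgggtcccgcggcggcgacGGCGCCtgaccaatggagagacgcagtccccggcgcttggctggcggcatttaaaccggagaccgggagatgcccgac
Bmp4 (chr14:46390670-46390919, minus strand): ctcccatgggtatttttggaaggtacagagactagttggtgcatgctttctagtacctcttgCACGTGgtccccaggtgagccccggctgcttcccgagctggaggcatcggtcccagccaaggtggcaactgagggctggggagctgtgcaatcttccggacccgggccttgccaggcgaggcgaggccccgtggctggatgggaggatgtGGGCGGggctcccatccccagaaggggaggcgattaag
Both strands were searched for 6 motifs: the TATA box (letters TATAAA), the AP-1 site (letters TGACTCA), the cyclic AMP response element (letters TGACGTCA), a GC-rich SMAD element (letters GGCGCC), the GC box (letters GGGCGG) and the E box (letters CACGTG). The Grem1 stretch held 3 GC boxes, starting 173, 131 and 107 bases before the start site, and 1 GGCGCC, 78 bases before it. The Bmp4 stretch held 1 CACGTG, 188 bases before the start, and 1 GC box, 38 bases before it. Among stretches of this length from 27025 genes, 32.9% held a GC box, 9.54% GGCGCC and 6.05% CACGTG, and the median GC content was 52.0%. The GC content was 72.0% for Grem1, 63.2% for Bmp4, 71.2% for Fstl3 and 43.2% for Inhba. Of the 4 stretches, those of Fstl3 and Inhba each held a TATA box match, which 13.0% of all genes had. The Fstl3 match read TTTATA, the reverse orientation, 29 bases before the start. The Inhba match read TATAAA, 91 bases before the start. The quantified Inhba locus begins at 16011713, inside that gene's stretch (16011601 to 16011850). A match describes the letters only and does not show that a factor binds there.

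Per transcript length the antagonist Grem1 and the activin subunit Inhba stood far above the other members. The mean over all 6 libraries was 560 FPKM (the authors' fragment value scaled for transcript length and library depth) for Grem1 and 149 FPKM for Inhba, and 64 and 413 of the 15673 tested loci had a higher mean. Fst followed at 22.1 FPKM and Fstl3 at 17.6 FPKM. The BMP ligands were lower, with 6.95 FPKM for Bmp4, 3.13 FPKM for Bmp2 and 1.35 FPKM for Gdf6. Nog, at 0.483 FPKM, and Gdf5, at 0.283 FPKM, were near the bottom of the tested range. Inhba was above Fst and Gdf6 above Nog in 6 of 6 libraries. Each of the other 6 neighbouring pairs kept its order in 5 of 6 libraries, so these neighbours were not separated beyond the spread between libraries. The exceptions were wild-type replicate 2 for Grem1 over Inhba and for Bmp2 over Gdf6, wild-type replicate 3 for Fst over Fstl3 and for Nog over Gdf5, knockout replicate 3 for Fstl3 over Bmp4, and knockout replicate 1 for Bmp4 over Bmp2.

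**Figure D1:**
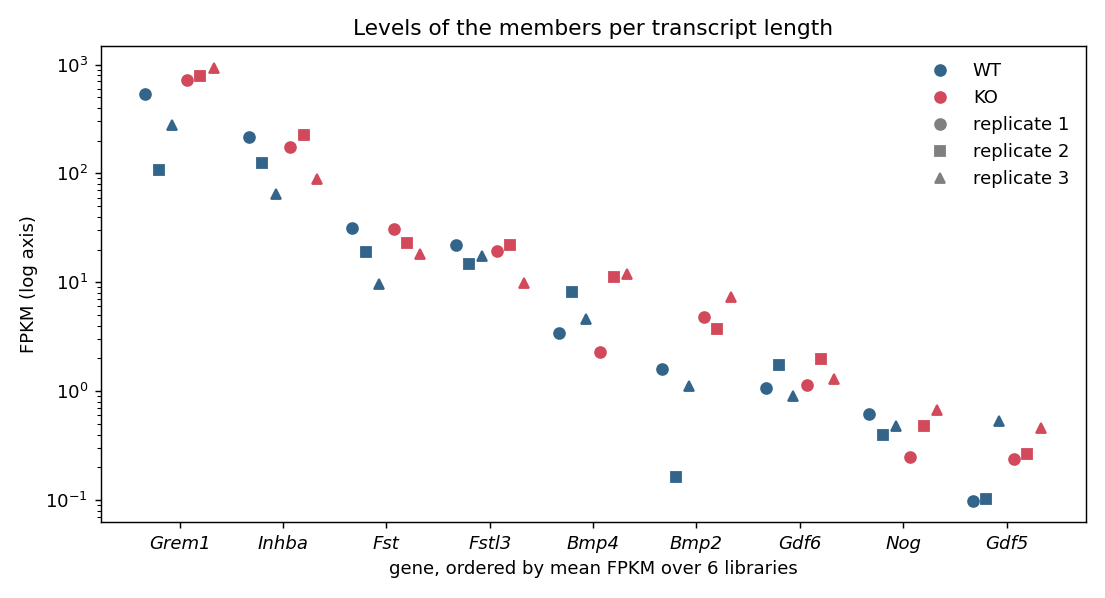
FPKM of each member in each library (log axis), ordered by the mean over all 6 libraries; blue marks wild-type and red marks knockout, and the marker shape gives the replicate. Grem1 (mean 560 FPKM) and Inhba (mean 149 FPKM) lie above the other 7 members in every library.

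Bmp2, a bone-inducing ligand, was the member with the largest difference. The files place it on the plus strand of chromosome 2 at 133552159 to 133562885, and like the other members it is annotated as protein-coding. It had 511, 30 and 233 fragments in wild-type replicates 1 to 3 and 441, 594 and 1405 in knockout replicates 1 to 3, or 7.23, 0.703 and 4.82 CPM against 20.7, 15.9 and 31.2 CPM. The lowest knockout library was 2.20 times the highest wild-type library. Within wild type the highest library was 10.3 times the lowest, and within knockout 1.96 times. Bmp2 averaged 4.25 ± 3.30 CPM over the wild-type and 22.6 ± 7.79 CPM over the knockout libraries (SD, n = 3 each), a ratio of 5.32. The fit gave it a log2 fold change of 2.41 (standard error 0.81), and edgeR's quasi-likelihood test gave an unadjusted p = 0.0251 and an adjusted p = 0.763. The adjusted p was 0.249 in DESeq2 and ran from 0.201 to 1.0 over all alternatives. In the authors' deposited table Bmp2 stood at 0.967 FPKM in wild type and 5.28 FPKM in knockout, with p = 0.0034 and q = 0.614; that table had 17 of 8799 tested genes (0.193%) at a q under 0.05.

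Grem1, a secreted antagonist of BMP2, BMP4 and BMP7, showed the same order of libraries within wild type as Bmp2. It lies on the minus strand of chromosome 2 from 113746164 to 113758646. Its levels were 2855, 549 and 1394 CPM in wild-type and 3642, 3914 and 4659 CPM in knockout replicates 1 to 3. The groups did not overlap, but the lowest knockout library was only 1.28 times the highest wild-type library, whereas wild-type libraries differed 5.20-fold among themselves. Grem1 averaged 1599 ± 1167 CPM over the wild-type and 4072 ± 526 CPM over the knockout libraries (SD, n = 3 each), a ratio of 2.55. The log2 fold change was 1.35 (standard error 0.58; adjusted p = 0.763 in edgeR's quasi-likelihood test, unadjusted p = 0.0605, and adjusted p = 0.634 in DESeq2). Its adjusted p ran from 0.147 to 1.0 over all alternatives. In the authors' deposited table Grem1 stood at 309 FPKM in wild type and 810 FPKM in knockout. The authors' own test gave it p = 0.141 there, and its q was not under 0.05.

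Wild-type replicate 2 was the lowest of the 6 libraries for both genes. Without it the log2 fold change was 1.92 for Bmp2 and 0.95 for Grem1, and without wild-type replicate 1, the highest wild-type library for both, it was 3.05 and 2.08. The 9 fibroblast markers with a locus of their own summed to 11061, 31091 and 11937 CPM in wild-type and 5537, 9028 and 8686 CPM in knockout replicates 1 to 3, none at 0, and their sum was highest in wild-type replicate 2. Collagen genes made up most of that peak, with Col1a1 at 11994 CPM there and 829 to 3408 CPM in the other libraries. Not all markers ran that way: Dcn, encoding the matrix proteoglycan decorin, was lowest in wild-type replicate 2 (216 CPM, against 430 to 1459 CPM elsewhere), and Pdgfra lay between 88.4 and 195 CPM in all 6. The part of these differences in the Bmp2 and Grem1 values was not tested. The macrophage marker sum was highest in wild-type replicate 3, then in wild-type replicate 2 and knockout replicate 1. When these 3 libraries were left out, an alternative added after the values were seen, Bmp2 had a log2 fold change of 1.70 and Grem1 of 0.59 between 2 knockout libraries and 1 wild-type library.

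**Figure D2:**
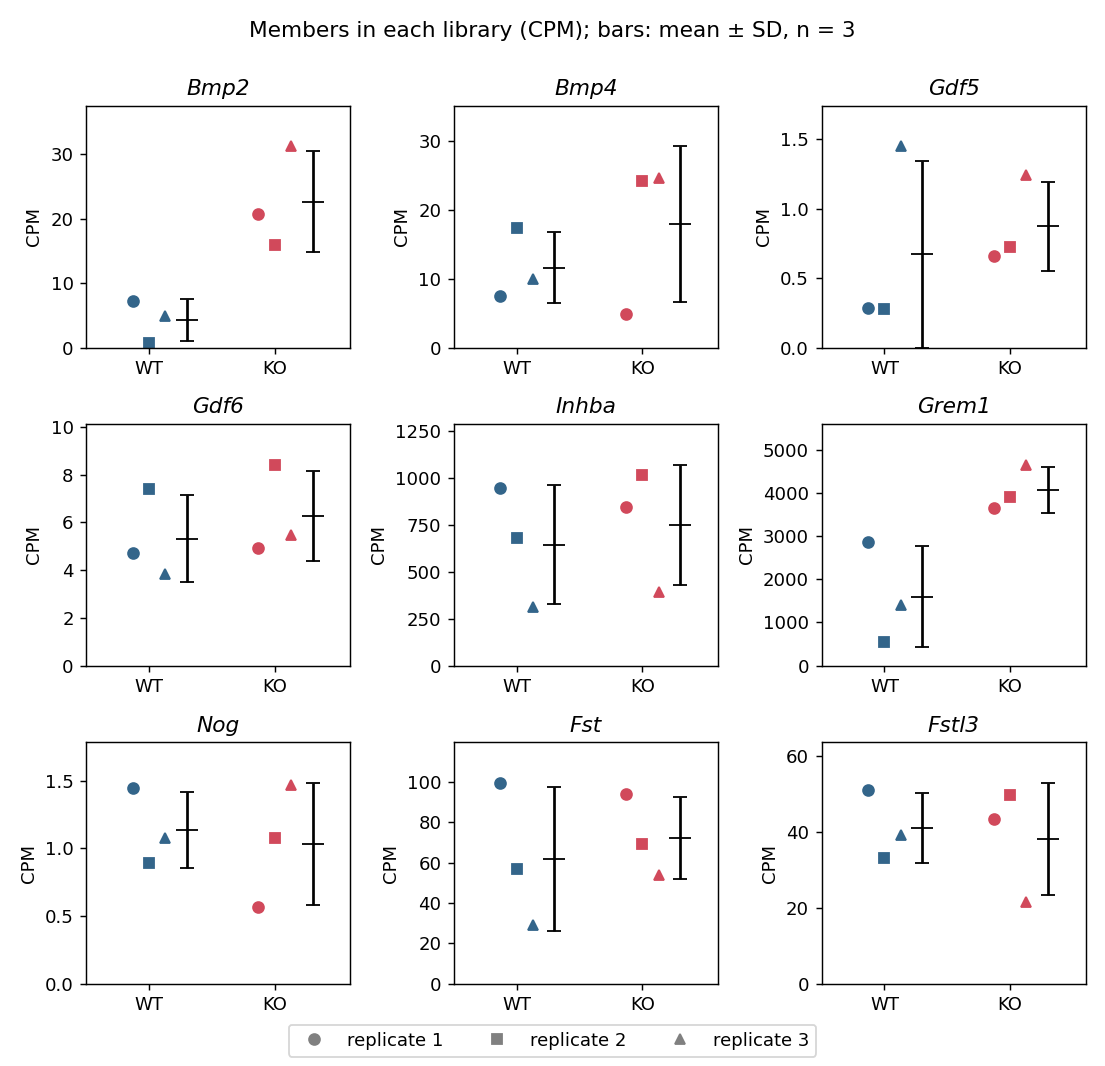
CPM of each of the 9 members in each library, with an axis from 0 in every panel; blue marks wild-type (WT) and red marks knockout (KO), the shape gives the replicate, and bars give mean ± SD (n = 3). Only the panels of Bmp2 and Grem1 show 3 knockout points above all 3 wild-type points.

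Bmp4, the close relative of Bmp2, had overlapping groups. It lies on the minus strand of chromosome 14 from 46383520 to 46390669, 22.6 Mb from Stc1. Its levels were 7.52, 17.3 and 9.99 CPM in wild-type and 4.84, 24.2 and 24.6 CPM in knockout replicates 1 to 3. Knockout replicate 1 was the lowest of all 6 libraries and knockout replicates 2 and 3 the highest, whereas for Bmp2 all 3 knockout libraries were the highest. It averaged 11.6 ± 5.09 CPM over the wild-type and 17.9 ± 11.3 CPM over the knockout libraries (SD, n = 3 each), with a log2 fold change of 0.63 and a standard error of 0.65 (adjusted p = 0.784 in edgeR's quasi-likelihood test). The value moved with single libraries: it was 1.07 without knockout replicate 1 (unadjusted p = 0.0434, adjusted p = 0.915 in edgeR's quasi-likelihood test), 1.05 when wild-type replicate 2 was left out and 0.33 when knockout replicate 3 was. Without the 3 libraries richest in macrophage marker RNA, with 1 wild-type library left, it was 1.70, the value Bmp2 had there too (unadjusted p = 0.000932, adjusted p = 0.779 in edgeR's quasi-likelihood test). The proportion of the 2 ligand RNAs overlapped between genotypes. Bmp2 was 0.466, 0.0199 and 0.243 times Bmp4 in FPKM in the wild-type libraries and 2.08, 0.336 and 0.613 times in the knockout libraries. Bmp2 exceeded Bmp4 in knockout replicate 1 alone. This ratio was looked at after the values were seen and was not tested. An antisense gene, Gm15222, and a protein-coding gene, Gm15217, overlap Bmp4 on the other strand, and the labels do not say whether counting used the strand.

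The joint-patterning ligands were scarce. Gdf6, on chromosome 4 from 9844372 to 9862345, stood at 4.73, 7.38 and 3.85 CPM in wild-type and 4.93, 8.42 and 5.46 CPM in knockout replicates 1 to 3. The groups overlapped along most of their range, and the log2 fold change was 0.24 (standard error 0.36; adjusted p = 0.843 in edgeR's quasi-likelihood test). Gdf5, on chromosome 2 from 155941023 to 155945367, had only 20, 12 and 70 fragments in the wild-type and 14, 27 and 56 in the knockout libraries. Wild-type replicate 3, at 1.45 CPM, was the highest and wild-type replicates 1 and 2, at 0.283 and 0.281 CPM, the lowest, with the knockout libraries between 0.658 and 1.24 CPM. Its log2 fold change was 0.39 (standard error 0.76; adjusted p = 0.88 in edgeR's quasi-likelihood test), and it was 1.63 without wild-type replicate 3, 1.79 without the 3 libraries richest in macrophage marker RNA, and 0.04 to 0.05 without any 1 of wild-type replicates 1 and 2 and knockout replicate 3. A further protein-coding gene, Gm15557, overlaps Gdf5 on the other strand.

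Inhba encodes the beta A subunit, which pairs with itself to form activin A. It lies on the plus strand of chromosome 13, from 16011713 to 16032343. Its levels were 946, 679 and 314 CPM in wild-type and 847, 1015 and 394 CPM in knockout replicates 1 to 3. Replicate 3 was the lowest library of each genotype, and the groups overlapped. Inhba averaged 646 ± 317 CPM over the wild-type and 752 ± 321 CPM over the knockout libraries (SD, n = 3 each), a difference smaller than either SD, with a log2 fold change of 0.22 and a standard error of 0.51 (adjusted p = 0.899 in edgeR's quasi-likelihood test). Without wild-type replicate 3 the value was -0.11. The minus strand locus that carries the same name runs from 15945202 to 16012840, overlaps the 5' end of Inhba and lies within the annotated transcribed pseudogene B230303A05Rik. It held 44, 20 and 7 fragments in the wild-type and 8, 24 and 6 in the knockout libraries, at least 1449 times fewer than the plus strand locus in each library. Its log2 fold change was -0.12 (standard error 0.76). The plus strand locus overlaps B230303A05Rik and the antisense gene Gm48444, both on the other strand.

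Follistatin and follistatin-like 3, which bind activins and keep them from their receptors, did not separate the genotypes. Fst, on the minus strand of chromosome 13 from 114452262 to 114459028, stood at 99.7, 57.0 and 28.9 CPM in wild-type and 94.2, 69.0 and 54.0 CPM in knockout replicates 1 to 3. The wild-type range enclosed all 3 knockout values. The log2 fold change was 0.23 (standard error 0.47; adjusted p = 0.889 in edgeR's quasi-likelihood test). Without wild-type replicate 3 it was -0.12. The antisense gene Gm47040 overlaps Fst on the other strand. Fstl3, on the plus strand of chromosome 10 from 79777272 to 79782630, stood at 51.0, 33.0 and 39.0 CPM in wild-type and 43.4, 49.6 and 21.5 CPM in knockout replicates 1 to 3. Knockout replicate 3 was the lowest library, and the log2 fold change was -0.11 (standard error 0.35; adjusted p = 0.932 in edgeR's quasi-likelihood test). The 3' end of Fstl3 overlaps Prss57 on the other strand.

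Noggin was nearly silent. Nog, on the minus strand of chromosome 11 from 89300638 to 89302559, had 102, 38 and 52 fragments in the wild-type and 12, 40 and 66 in the knockout libraries. These are 1.44, 0.890 and 1.08 CPM against 0.564, 1.07 and 1.46 CPM, with both extremes in knockout cells. The log2 fold change was -0.13 (standard error 0.44; adjusted p = 0.937 in edgeR's quasi-likelihood test).

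The balance of ligand and antagonist RNA was compared within each library, where the scaling of libraries cancels. For activin, Inhba was 4.01, 3.70 and 2.39 times the sum of Fst and Fstl3 in FPKM in wild-type replicates 1 to 3, and 3.45, 5.01 and 3.18 times in knockout replicates 1 to 3. The values overlapped, with a mean log2 ratio of 1.93 ± 0.35 in knockout and 1.72 ± 0.40 in wild-type cells (SD, n = 3 each). An exact permutation test (two-sided) gave p = 0.6, also after adjustment over the 2 ratios, where 0.1 is the smallest p that 3 against 3 libraries allow. Inhba against Fst alone, in FPKM, was 6.80, 6.62 and 6.71 in the wild-type libraries. In CPM each of the 2 genes varied there by at least 3.01-fold. Inhba stood at 946, 679 and 314 CPM and Fst at 99.7, 57.0 and 28.9 CPM, so their ratio was less even in CPM. In the knockout libraries the FPKM ratio was 5.61, 9.76 and 4.91, on both sides of the wild-type values.

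For BMP, antagonist RNA outweighed ligand RNA in all 6 libraries. Grem1 was 107, 13.0 and 48.1 times the sum of Bmp2 and Bmp4 in FPKM in wild-type replicates 1 to 3, and 101, 52.6 and 48.4 times in knockout replicates 1 to 3. Wild-type replicate 2 had the lowest excess of antagonist, and the other 5 libraries lay between 48.1 and 107. The log2 ratio of Bmp2 plus Bmp4 over Grem1 plus Nog was -5.99 ± 0.58 in knockout and -5.34 ± 1.54 in wild-type cells (SD, n = 3 each), and the exact permutation test (two-sided) gave p = 0.6, also when adjusted over the 2 ratios. The difference, knockout minus wild type, was -0.65, and without wild-type replicate 2 it was 0.17. FPKM compare RNA per length and say nothing of protein amounts.

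**Figure D3:**
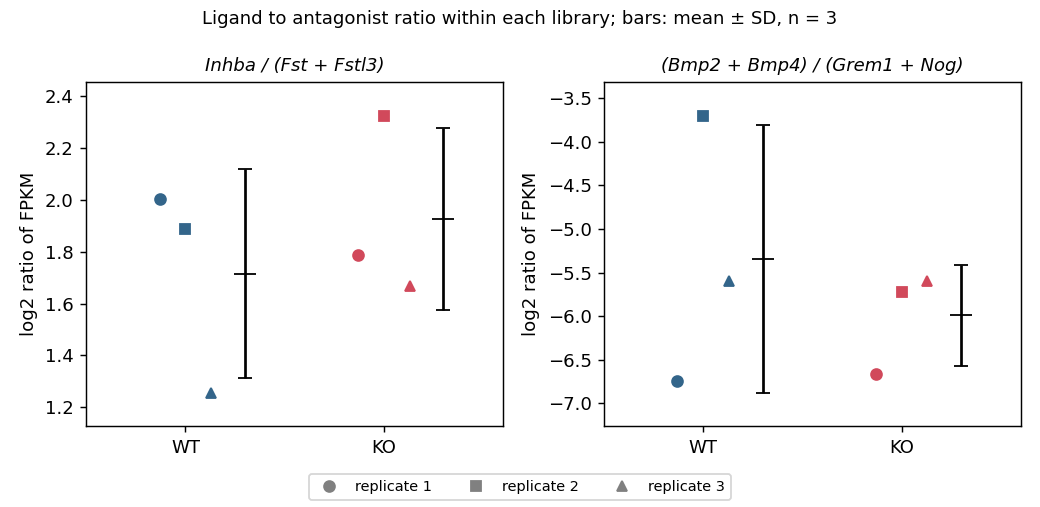
Log2 ratio of FPKM within each library, Inhba over Fst plus Fstl3 on the left and Bmp2 plus Bmp4 over Grem1 plus Nog on the right; blue marks wild-type (WT) and red marks knockout (KO), the shape gives the replicate, and bars give mean ± SD (n = 3). The genotypes overlap in both panels, and wild-type replicate 2 stands apart at the top of the right panel.

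The rest of the pathway was read from the same fit, and edgeR called 0 genes of any list (DESeq2 also 0), against 0% of all loci. The median log2 fold change of all loci tested was -0.05, with 6961 positive and 8712 negative. That of the 9 members was 0.24, with 7 positive and 2 negative. The lists were not tested as sets. Of 23 other ligands of the family 14 were tested, 12 of them with a positive log2 fold change (median 0.63). That median ran from 0.36 without wild-type replicate 3 to 1.15 without wild-type replicate 1, and was 0.18 without the 3 libraries richest in macrophage marker RNA. The ones with the smallest p were Gdf7, at 2.38, 0.609 and 0.724 CPM in wild-type and 2.07, 4.59 and 14.7 CPM in knockout replicates 1 to 3, and Bmp6, at 2.70, 2.15 and 1.14 against 3.57, 2.82 and 3.48 CPM. The Gdf7 groups overlapped, and those of Bmp6 lay apart by a small margin. The Gdf7 locus also carries the name AC122860.1. Inhbb, the activin beta B subunit, was the most abundant of these ligands per length, at 10.5 to 40.2 FPKM, below Inhba.

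Among other secreted antagonists 13 of 18 were tested, with 9 positive and 4 negative log2 fold changes (median 0.20, and 0.10 without knockout replicate 3). Tsku, encoding tsukushi, a BMP-binding leucine-rich protein, had the smallest p (log2 fold change 0.47, standard error 0.16, unadjusted p = 0.0243 and adjusted p = 0.763 in edgeR's quasi-likelihood test). It stood at 87.7, 68.2 and 67.3 CPM in wild-type and 109, 95.1 and 104 CPM in knockout replicates 1 to 3, with no overlap and a narrow spread. Fstl1, a follistatin-like glycoprotein, came second, averaging 1588 ± 486 CPM over the wild-type and 1183 ± 117 CPM over the knockout libraries (SD, n = 3 each), with overlapping groups and a log2 fold change of -0.43. Per length Fstl1 (mean 305 FPKM) and Nbl1 (74.6 FPKM), which encodes another secreted BMP antagonist, stood above Fst and Fstl3.

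Of 14 receptors and co-receptors 13 were tested, with 7 positive and 6 negative log2 fold changes (median 0.16). That median changed sign when wild-type replicate 3 was dropped (-0.08) and without the 3 libraries richest in macrophage marker RNA (-0.05), and was at most 0.07 when any 1 of wild-type replicate 2 and knockout replicates 1 and 2 was left out. Acvr2a, a type II receptor for activins and BMPs, was lower in all knockout libraries, at 22.8, 26.3 and 16.5 CPM against 26.6, 61.4 and 27.7 CPM. The nearest libraries, at 26.3 and 26.6 CPM, almost touched, and the log2 fold change was -0.82 (standard error 0.39; adjusted p = 0.763 in edgeR's quasi-likelihood test). Eng, encoding the co-receptor endoglin, shares its locus with Ak1 and had a log2 fold change of 0.55 (standard error 0.34). The BMP receptors Bmpr1a and Bmpr2 differed little, with log2 fold changes of -0.02 and -0.07 and standard errors of 0.21 for each. The 8 SMAD and SMURF genes were all tested, 5 positive and 3 negative (median 0.14, and 0.04 without wild-type replicate 3 or 0.06 without knockout replicate 1). Smurf1, a ubiquitin ligase that marks SMADs for breakdown, averaged 169 ± 55.8 CPM over the wild-type and 222 ± 5.84 CPM over the knockout libraries, and Smad9 8.02 ± 4.52 against 11.2 ± 0.844 CPM (SD, n = 3 each). In both genes wild-type replicate 1 lay above all knockout libraries and the groups overlapped.

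Target genes that BMP signalling is known to induce were tested in 10 of 11 cases, 8 positive and 2 negative (median 0.35). Msx1, a homeobox gene of limb and jaw mesenchyme, stood at 1.97, 1.01 and 0.952 CPM in wild-type and 0.470, 8.07 and 26.1 CPM in knockout replicates 1 to 3. Knockout replicate 1 was the lowest library and the other 2 were the highest, as for Bmp4 (log2 fold change 3.14, standard error 1.26, adjusted p = 0.763 in edgeR's quasi-likelihood test). Msx2 stood at 11.6, 1.92 and 5.28 CPM in wild-type and 7.89, 12.2 and 18.8 CPM in knockout replicates 1 to 3. The log2 fold change of Msx2 was 1.05 (standard error 0.68). Its lowest library was wild-type replicate 2, as for Bmp2, but this was not particular to Msx2. The same library was lowest for the targets Id1, Id2, Id3, Id4, Smad6, Smad7 and Atoh8, though not for Msx1 or Hey1. Id1 and Id3, immediate targets of SMAD1 and SMAD5, had log2 fold changes of 0.62 and 0.35 with standard errors of 0.46 and 0.36. Id2 went the other way at -1.02, with 414 CPM in wild-type replicate 3, the library with the most macrophage marker RNA, and 57.8 to 134 CPM elsewhere. The median of the target list was 0.07 without wild-type replicate 2, 0.84 without wild-type replicate 1, 0.20 without knockout replicate 2, and -0.16 without the 3 libraries richest in macrophage marker RNA.

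**Figure D4:**
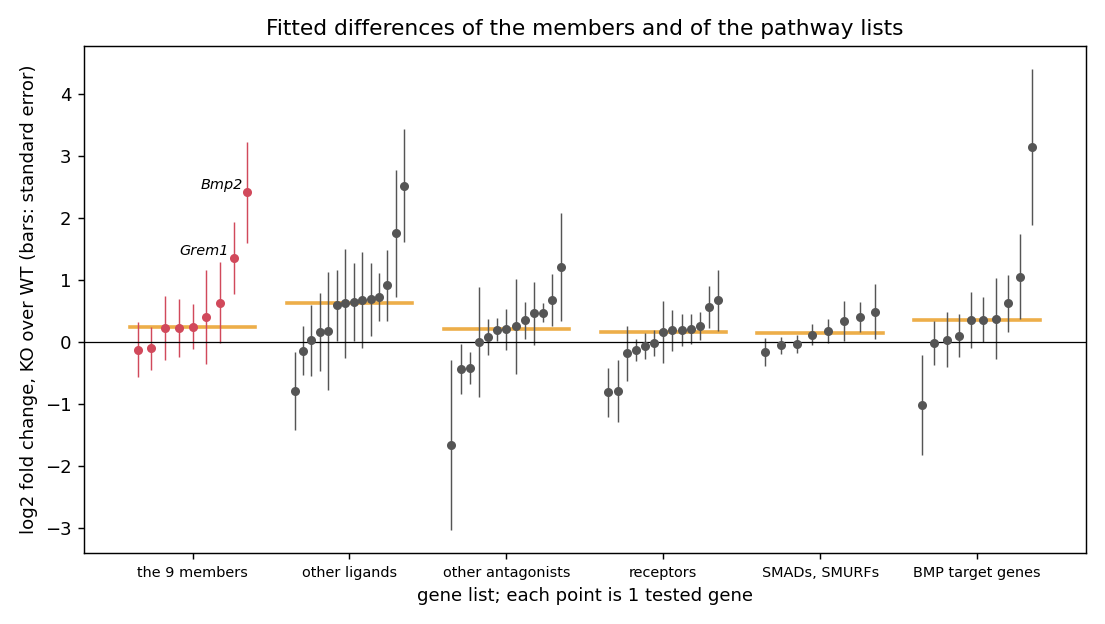
Fitted log2 fold change, knockout over wild type, of each tested gene, with its standard error as a bar; the 9 members are red, the pathway lists grey, and a yellow line marks each list's median. Bmp2 (2.41) and Grem1 (1.35) are the highest of the members, and no gene shown passed the adjusted threshold.

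Correlations of the members among themselves over the 6 libraries are given here as a description. Log2 CPM of Bmp2 and Grem1 ran closely together (Pearson r = 0.98 over 6 libraries), as did those of Inhba and Fst less closely (r = 0.87). Bmp2 and Bmp4 were unrelated by this measure (r = -0.03). Gdf5 ran opposite to Inhba (r = -0.71) and Fst (r = -0.65), and the remaining pairs lay between -0.50 and 0.67. These values share the genotype difference and the scaling of each library. The loci most like Bmp2 among 11423 compared were Akr1c18 and Extl2 (r = 0.99 for each), and those most like Grem1 were Tsc1 and Prkaa2 (r = 1.0 for each after rounding). With 6 libraries such values are common: 440 loci had an r above 0.9 with Bmp2 and 687 with Grem1, but only 10 with Bmp4, led by Parg and Mrps7. For Inhba the leading loci were Odf2l and Bnc1, for Fst Zfp771 and Faf1, for Fstl3 Bmpr2 and Dpp9, for Gdf5 Irf2bpl and Gtpbp3, for Gdf6 Hyou1 and Gm11361, for Nog Asb13 and Chst14, and for the minus strand locus Zfp760 and Tnc.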

How the data were processed

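Messenger RNA of 3 wild-type and 3 Stc1 knockout fibroblast libraries was analysed from 1 file per library. The submitters' processing notes name CASAVA 1.8.2, TopHat2 2.0.6, Cuffdiff 2.0.1 and mm10, with no role or order. Per the file headers, the authors' files give estimated counts of fragments (expected counts, not whole for 24% to 24.6% of values above 0) and FPKM for each locus. The authors' deposited table gives FPKM, a log2 fold change (with a placeholder for infinite values), p-values and q-values per gene. It was quoted but not tested.

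Loci without a name (2667, at most 0.555% of fragments) or marked HIDATA (16) were left out, leaving 36812. Counts were rounded, filtered with filterByExpr, scaled by TMM and compared by the robust quasi-likelihood F test of edgeR 4.0.16 (R 4.3.3), with a Benjamini-Hochberg adjusted p under 0.05 as the call. The standard errors in the text and figures were derived from that fit, as the absolute log2 fold change over the square root of F. Replicate numbers follow accession order and pair nothing. Where a listed gene has several loci, the one with most fragments was used. Named genes are the 9 members, Stc1, the 2 genes of smallest p per pathway list and the 2 loci most correlated with each member (mean log2 CPM of at least 2); others were named after their values were seen. The members and lists were chosen with earlier results of these data known. Other settings were no filter, RLE scaling, a non-robust fit, each library left out, DESeq2 1.42.0, voom, and limma 3.58.1 with FPKM on a log2 scale after adding 1 or 0.1. Simulated data with known changes were used to test the fit.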

Additional observations from a re-analysis of the deposited data

How the results depend on the processing

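No member and no gene of the 5 pathway lists was called under any of the 14 alternatives to the edgeR fit. Over all loci, DESeq2 called 61 and limma on log2(FPKM + 0.1) called 1, and edgeR called 0 when any 1 library was left out. Bmp2, Grem1, Bmp4 and Gdf5 had positive log2 fold changes under all 14. With 1 library left out in turn, the log2 fold change ran from 1.92 to 3.05 for Bmp2 and from 0.95 to 2.08 for Grem1. It changed sign for the members other than Bmp2, Grem1, Bmp4 and Gdf5: from -0.029 to 0.56 for Gdf6, -0.11 to 0.59 for Inhba, -0.12 to 0.75 for Fst, -0.33 to 0.18 for Fstl3, -0.46 to 0.16 for Nog and -0.75 to 0.32 for the minus strand Inhba locus. The difference in log2 ratio ran from -0.0196 to 0.35 for activin and from -1.35 to 0.17 for BMP. Without the 3 libraries richest in macrophage markers, added after the values were seen, Bmp4 was at 1.70, Gdf5 at 1.79, Inhba at -0.42 and Fst at -0.70, in a fit whose spread comes from the 2 knockout libraries alone and is taken to hold for the single wild-type one. The cause of these shifts was not tested. Depth limits Nog and Gdf5, with 12 to 102 fragments per library. No paired analysis was possible because the labels give no replicate numbers shared between genotypes.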

Other observations

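Several low-abundance genes of the family had their highest level in knockout replicate 3, a pattern picked after the values were seen and not tested. Gdf7, which encodes a ligand of dorsal neural tube and tendon, stood there at 14.7 CPM against 0.609 to 4.59 CPM in the other 5 libraries. Inha, the inhibin alpha subunit that turns beta subunits from activin to inhibin, stood at 10.0 CPM against 0.375 to 2.82 CPM. Bmp2 (31.2 CPM), Grem1 (4659 CPM), Msx1 (26.1 CPM) and Msx2 (18.8 CPM) were also highest in this library, while Fstl3 (21.5 CPM) and Acvr2a (16.5 CPM) were at their lowest.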
